A study of Mus musculus with 2 samples.

Results

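The genes described here are 10 mouse genes for proteins of the neuronal microtubule skeleton and the growth cone: Tubb3, Map2, Mapt, Map1b, Stmn2, Stmn3, Stmn4, Dcx, Gap43 and Marcks. They were taken by name from the GENCODE mouse release M21 annotation, in which they are 10 of 21938 protein-coding genes on the main chromosomes. Chromatin accessibility was mapped by DNase-seq, in which the enzyme DNase I cuts nuclei preferentially where DNA is exposed, in MN1, an immortalized mouse line of strain B6NCrl. The single group consists of 2 biological replicates from the same donor, each given 10 nM of the androgen receptor agonist methyltrienolone. No untreated cells were analysed here, so no value below is a response to the compound. The labels give no tissue of origin, age or sex, and do not say how the line was immortalized.

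Microtubules are hollow polymers of alpha- and beta-tubulin that form the tracks of axons and dendrites. Structural microtubule-associated proteins bind along the polymer and stabilize or bundle it, while stathmins bind free tubulin and favour disassembly. The growth cone is the motile tip of an extending axon, where microtubules meet the actin network under a membrane rich in substrates of protein kinase C. Many of these genes are used as markers of neurons, and several are repressed outside the nervous system by the factor REST, which binds an element called RE1.

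The authors called peaks of 150 bp, each with a score from 1 to 150 that the sources used here do not define, and wider hotspots, separately in each library. Replicate 1 held 189648 analysed peaks and replicate 2 held 170745, and overlapping peaks of both were merged into 127807 shared regions. Of these, 76125 were distal, that is, over 2.5 kb from every annotated transcription start site (TSS). A promoter is called open where a shared region overlaps the 1 kb on either side of any TSS of the gene. Promoter percentiles rank the highest promoter peak score of a gene among all protein-coding genes with a promoter peak in that library. Where no peak was called, the chromatin may still be accessible below the threshold. The cells carried open promoters at 5 of 7 motor neuron markers, 7 of 7 other neuronal markers, 1 of 6 glial markers and 4 of 6 fibroblast markers, against 59.5% of all protein-coding genes. The lower of both replicates' percentiles had a median of 20.9, 21.3, 24.8 and 20.1 over the open genes of these lists in turn. Over all protein-coding genes with a promoter peak in both replicates it was 46.7. The part of these cell types in the results below was not tested. The labels name 2 sequencing instruments for replicate 1 and none for replicate 2, so instrument and replicate cannot be told apart.

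The promoters of the highest-scoring member (Tubb3), of both large structural proteins with sequence in the table (Map1b and Map2) and of the 1 member without a promoter peak (Dcx) are shown as examples. They run from 250 bases before the start site to 50 after it, 5′ to 3′ on the strand of the gene, and come from RefSeq on GRCm38. Capitals mark matches on either strand to the SP/KLF core GGGCGG, the NF-Y element CCAAT, the E-box CAGATG, the homeodomain core TAATTA, the TATA box TATAAA and, in Map2, an RE1 match with 1 mismatch. None of these matches overlap each other.
Tubb3, chr8:123411303-123411602, plus strand: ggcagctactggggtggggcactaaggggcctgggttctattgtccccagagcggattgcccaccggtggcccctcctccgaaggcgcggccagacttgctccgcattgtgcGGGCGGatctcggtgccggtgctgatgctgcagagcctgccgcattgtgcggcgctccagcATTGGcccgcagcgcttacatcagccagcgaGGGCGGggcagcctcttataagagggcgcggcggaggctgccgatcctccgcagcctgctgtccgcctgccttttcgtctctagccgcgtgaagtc
Map1b, chr13:99516553-99516852, minus strand: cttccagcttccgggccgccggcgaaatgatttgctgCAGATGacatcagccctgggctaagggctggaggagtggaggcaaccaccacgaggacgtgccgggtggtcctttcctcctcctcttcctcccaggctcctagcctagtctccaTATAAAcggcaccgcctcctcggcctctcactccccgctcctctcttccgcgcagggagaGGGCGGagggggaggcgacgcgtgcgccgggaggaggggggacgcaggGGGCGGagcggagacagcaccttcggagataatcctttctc
Map2, chr1:66175079-66175378, plus strand: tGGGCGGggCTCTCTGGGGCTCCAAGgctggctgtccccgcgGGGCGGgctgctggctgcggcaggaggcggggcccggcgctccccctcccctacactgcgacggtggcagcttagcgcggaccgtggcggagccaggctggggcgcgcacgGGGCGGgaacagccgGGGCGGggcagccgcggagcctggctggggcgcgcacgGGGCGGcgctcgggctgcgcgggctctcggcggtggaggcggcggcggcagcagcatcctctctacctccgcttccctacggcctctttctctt
Dcx, chrX:143933170-143933469, minus strand: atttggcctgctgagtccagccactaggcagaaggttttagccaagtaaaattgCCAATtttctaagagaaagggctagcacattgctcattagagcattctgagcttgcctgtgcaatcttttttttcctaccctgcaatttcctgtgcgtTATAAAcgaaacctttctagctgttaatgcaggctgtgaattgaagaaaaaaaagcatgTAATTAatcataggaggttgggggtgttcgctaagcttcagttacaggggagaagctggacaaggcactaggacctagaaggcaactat
The Tubb3, Map1b and Map2 stretches held 26, 23 and 37 CpG dinucleotides, and that of Dcx held 3, against a median of 7 over 32851 promoters of the RefSeq table. GGGCGG occurred in the first 3 and not in that of Dcx, and 35.7% of all promoters of the table hold it. Dcx held CCAAT, which is in 37.4% of the promoters of the table, the TATA box, which is in 13.6%, and the homeodomain core, which is in 5.29%. Stmn3 also has a promoter in the table, and its stretch is not printed. It held 6 CpG dinucleotides, CAGATG and no GGGCGG, and no peak lay in it, although Stmn3 had an open promoter. Of the 10 genes, 5 matched the promoter table by symbol. The others, Mapt, Stmn2, Stmn4, Gap43 and Marcks, are named only.

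Of the 10 genes, 9 had an open promoter in these cells, and Dcx was the exception. Over all protein-coding genes 59.5% had an open promoter. Every one of the 9 had a promoter peak and a promoter hotspot in each library. The openness was of very different strength: Tubb3 stood near the top of all genes and Stmn2 near the bottom. The median of the lower percentile of both replicates was 38.7 over the 9 genes and 46.7 over all 13087 protein-coding genes with a promoter peak in both replicates. Of the 9 genes, 4 (Tubb3, Marcks, Map1b and Map2) stood above that median of all genes.

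**Figure D1:**
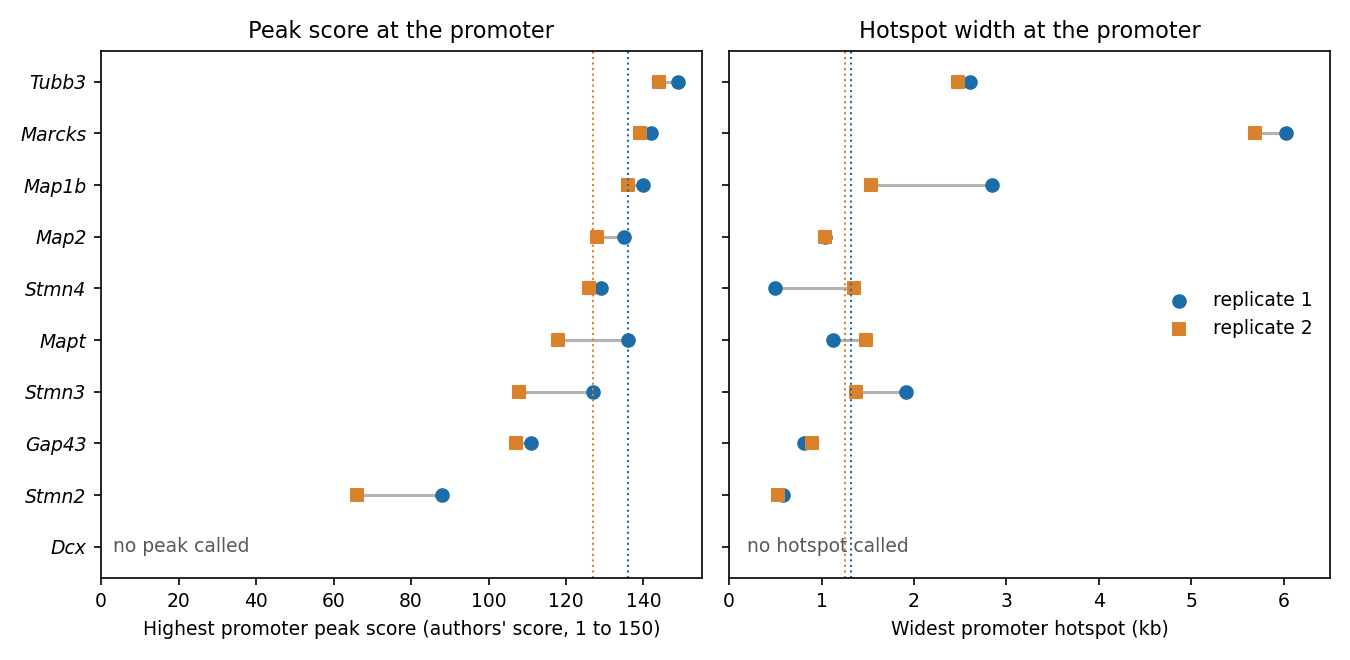
The left panel plots the highest promoter peak score of each gene (authors' score, linear axis) and the right panel the width in kb of its widest promoter hotspot, for replicate 1 (circles) and replicate 2 (squares), with genes in order of the lower percentile of both replicates. Dotted lines give the medians over all protein-coding genes with a promoter peak or hotspot in that replicate. Tubb3 has the highest scores, Marcks the widest hotspot by far, Stmn2 the lowest scores, and Dcx no call in either panel. The hotspot plotted for Mapt in replicate 1 lies at a start site inside the gene.

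Tubb3 encodes class III beta-tubulin, an isotype used as a marker of neurons. Its highest promoter peak scored 149 in replicate 1 and 144 in replicate 2, at percentiles 95.7 and 93.9. The peaks lay at the start site, within 100 bp of it in both libraries, and inside the sequence printed above. A second, weaker peak lay further into the gene, with scores of 108 in replicate 1 and 79 in replicate 2. The promoter hotspot of Tubb3 was 2608 bp wide in replicate 1 and 2473 bp in replicate 2, and it was followed after 15 bp by another of 2095 and 2086 bp. The wider one covered 1.78% of the length of Tubb3 in each replicate and otherwise lay upstream. It held a shared region 1133 bp upstream, inside the gene Mc1r, with scores of 145 and 132. Hotspots of at least 2 kb in both replicates covered the promoters of 2 of the 10 genes, Tubb3 and Marcks, and of 7.17% of all protein-coding genes.

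Map2, Mapt and Map1b encode structural microtubule-associated proteins. MAP2 is found in dendrites and cell bodies, and tau, the product of Mapt, mainly in axons. MAP1B is the member that appears earliest in growing axons. Map1b had the highest promoter score of the group, 140 in replicate 1 and 136 in replicate 2. Map2 scored 135 and 128, and Mapt scored 136 and 118. All 3 were thus open in both libraries, at lower percentiles of 60.9 for Map1b, 48.8 for Map2 and 36.3 for Mapt. The replicates ordered Mapt and Map2 differently, with Mapt 1 point higher in replicate 1 and Map2 10 points higher in replicate 2, so that these genes do not differ beyond the spread of the libraries.

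The long structural genes have several start sites inside their bodies, and some of these were open as well. TSS less than 1 kb apart were joined into groups. Map2 has 8 such groups, of which 4 held a shared region. Its first group scored 135 and 128 in replicates 1 and 2, the group 76374 bp further in scored 35 and 34, the group at 146446 bp scored 42 and 37, and the group at 211672 bp scored 89 and 35. The internal starts of Map2 were thus far weaker than its first, and the last of them differed most between the libraries. Map1b has 4 groups, of which 3 were open. Its group 68920 bp into the gene scored 111 in replicate 1 and 76 in replicate 2, and the group at 72073 bp, which has only non-coding transcripts, scored 135 and 117. Mapt has 4 groups, and the first alone was open, with scores of 136 and 118. Its group at 86643 bp, of 1 non-coding transcript, had no peak within 1 kb. A hotspot of 1124 bp in replicate 1 and 1045 bp in replicate 2 did reach within 1 kb of that group. The hotspot held a shared region 88171 bp from the 5′ end with scores of 136 and 124, counted neither as promoter nor as distal. Among all genes with 2 or more groups, 28% had a shared region at 2 or more of them, as had Map2, Map1b and Gap43 of the 5 members with 2 or more groups.

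The stathmins Stmn2, Stmn3 and Stmn4 are the neuron-enriched relatives of stathmin 1, and STMN2, also called SCG10, is concentrated in growth cones and is known as a gene under REST. All 3 promoters were open, and all stood below the middle of all open promoters. Stmn4 scored 129 in replicate 1 and 126 in replicate 2, Stmn3 scored 127 and 108, and Stmn2 scored 88 and 66. Stmn2 was the lowest of the 9 open genes in each library, at percentiles 15.7 and 11.0. With the stronger 50% of peaks alone, its lower percentile was 3.68. Its scores did not overlap those of any other open member. In each library 4 promoter peaks were called, none above 88, from the start site to about 1 kb into the gene. The peak of Stmn3 lay 249 bp inside the gene, in an exon, and outside the promoter window of the RefSeq table.

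Dcx encodes doublecortin, a microtubule-binding protein of migrating and immature neurons. No peak and no hotspot was called within 1 kb of the start site of any of its 6 annotated transcripts, which share 1 group of start sites. Within 1 kb of its 5′ end, 98.0% of 32-base sequences are found a single time in the main chromosomes, against 80.8% to 100% at the other 9 genes. Its ratio of observed to expected CpG over 1 kb was 0.319. Of 2193 protein-coding genes within 5 percentile points of that ratio, 42.1% had an open promoter. On chromosome X 42.5% of all protein-coding genes had an open promoter, and on the autosomes 60.8% had. The part of CpG content or of the chromosome in the state of Dcx was not tested. The nearest protein-coding neighbour with a promoter within 50 kb, Capn6, was not open either.

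Within the body of Dcx, 2 shared regions were called, both intronic and both weak. The first lay 30800 bp from the 5′ end and scored 40 in replicate 1 and 37 in replicate 2. The second lay at 39960 bp and scored 30 in each library. No shared region was called within 50 kb outside the gene. The first region is printed below because it is the strongest accessible site of the Dcx locus (GRCm38, plus strand, capitals mark CCAAT on the minus strand).
Dcx intron, chrX:143902396-143902625: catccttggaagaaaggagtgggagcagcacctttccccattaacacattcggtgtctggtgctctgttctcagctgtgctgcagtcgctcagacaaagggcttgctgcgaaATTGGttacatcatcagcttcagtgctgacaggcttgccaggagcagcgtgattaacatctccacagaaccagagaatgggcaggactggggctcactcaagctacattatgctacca
It has 51.7% G and C. CCAAT occurred in 22.2% of the 108 distal regions of the members and in 18.3% of all distal regions. Here and in the other distal motif shares, the 108 include 11 regions of the stretch past Tubb3 described below, where parts of the sequence are repeated.

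Gap43 and Marcks encode the growth cone membrane proteins GAP-43 and MARCKS, which are substrates of protein kinase C that bind calmodulin and the membrane. The promoter of Gap43 scored 111 in replicate 1 and 107 in replicate 2, at percentiles 23.8 and 26.4. Gap43 had a second open start, 64579 bp into the gene, of 1 non-coding transcript, which scored 92 in replicate 1 and 106 in replicate 2. The first start was thus the higher in replicate 1, and both were within 1 point in replicate 2.

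Marcks had the second highest promoter score of the 9 genes, 142 in replicate 1 and 139 in replicate 2, and by far the widest accessible stretch. Its promoter hotspot measured 6024 bp in replicate 1 and 5691 bp in replicate 2, which ranked 9 and 4 by width among all hotspots of these libraries. The whole gene is 5546 bp long, and the hotspot covered 53.9% of it in replicate 1 and 54.7% in replicate 2, with the rest of the hotspot lying upstream and reaching into a non-coding gene, 5930403N24Rik. In and beside the stretch 11 shared regions were called, 4 of them at the promoter, where 30.3% of all protein-coding genes held at least 3. Of the 10 members, 6 held at least 3. The highest of them was not at the start site but 1689 bp into the gene, in an intron, with scores of 145 in replicate 1 and 143 in replicate 2. All 11 scored lower in replicate 2. No distal shared region was called in the 50 kb on either side of Marcks.

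The replicates kept the order of the genes at both ends of the scale and not in the middle. All 9 highest promoter scores were lower in replicate 2, by 3 points for Marcks and Stmn4 up to 22 for Stmn2, and 86.4% of all genes with a promoter peak in both were lower there. As percentiles, which remove the shift between the lists, Mapt stood at 50.9 in replicate 1 and 36.3 in replicate 2, and Marcks at 66.9 and 80.4. Around the 10 genes, 74.7% of the 285 peaks of replicate 1 and 85.7% of the 252 peaks of replicate 2 had an overlapping partner, against 68.7% and 76.7% of all peaks. Of the 209 shared regions around the members, 74.2% scored lower in replicate 2, against 68.4% of all shared regions.

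All 10 genes held at least 1 distal shared region in their bodies, as did 38.8% of all protein-coding genes. The members' bodies are long, with a median of 64858.5 bp against 17425 bp over all protein-coding genes, and the part of length in this was not tested. The only distal region of Marcks lay 2619 bp from its start site, just past the 2.5 kb limit and inside its promoter hotspot. Per 10 kb of gene, the median was 1.20 distal regions for the members and 0 for all genes, with a 95th percentile of 1.48 over all genes. Together the bodies held 51 distal regions, and the 50 kb on either side held 57. At least 1 distal region in that flank was found for 8 members, all except Dcx and Marcks, and for 77.2% of all genes. Of the 108 distal regions, 48 lay in introns and 3 in exons of the members, 26 upstream and 31 downstream. Their median score was 76.5 in replicate 1 and 62 in replicate 2, against 62 and 55 over all distal regions.

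**Figure D2:**
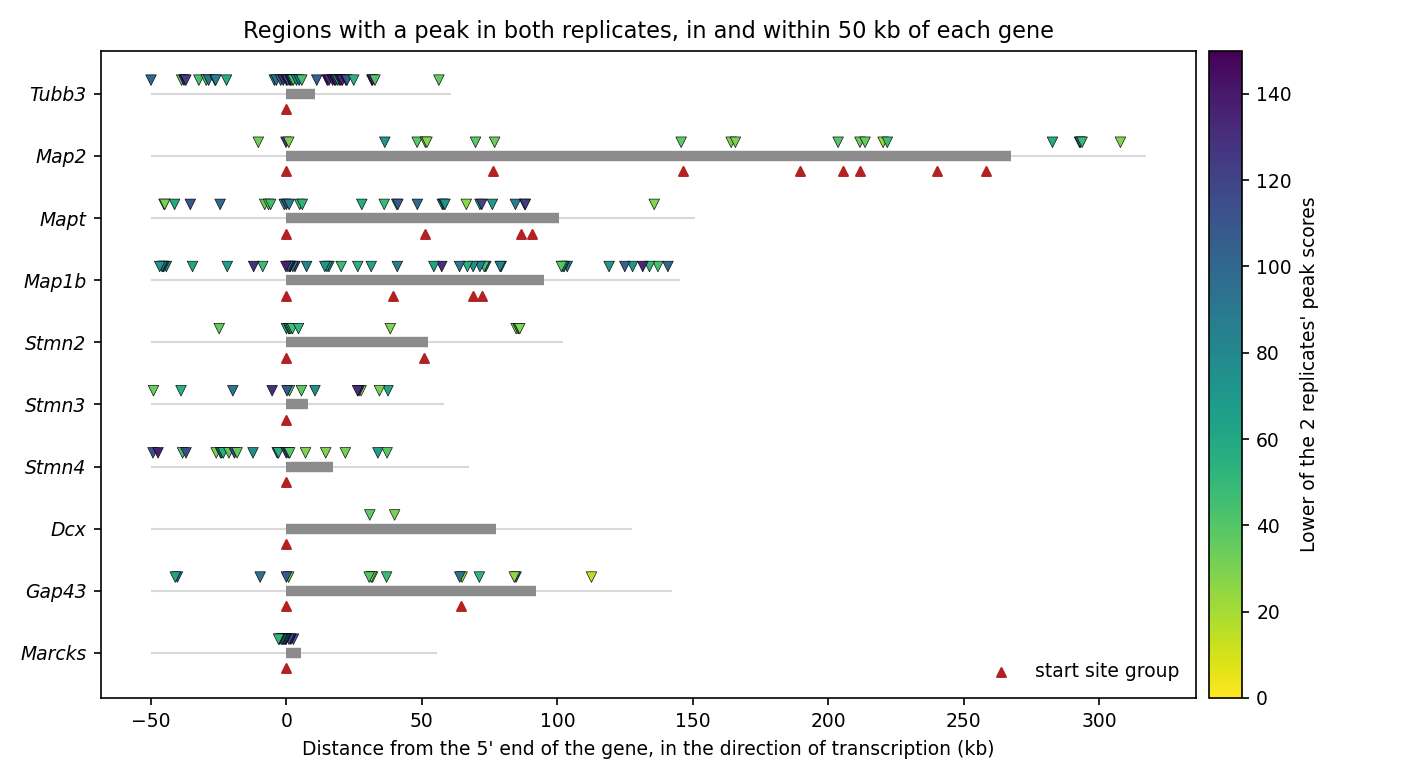
Each row is 1 gene, drawn from its 5′ end in the direction of transcription with the distance in kb on the x axis. Thick bars are gene bodies and thin lines the 50 kb on either side. Downward triangles above the line are shared regions, coloured by the lower of both replicates' scores, and red upward triangles below it are groups of start sites. Mapt, Map1b and Map2 carry regions along the whole body, Marcks only around its start, Dcx only 2 weak intronic ones, and Tubb3 a dense row just past its 3′ end.

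Mapt and Map1b carried the most distal regions in their bodies, 13 and 12. In Mapt these scored from 36 to 136 in replicate 1 and from 26 to 119 in replicate 2, and 12 of the 13 were lower in replicate 2. The highest lay in an intron 72101 bp from the 5′ end, with 136 and 119, a level equal in replicate 1 to that of the Mapt promoter itself. It was followed by one at 41141 bp with 126 and 107. The 3 most distant upstream regions of Mapt, which scored 103 to 113 in replicate 1 and 60 to 110 in replicate 2, were nearer to the start site of Sppl2c.

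Map1b had intronic distal regions that scored from 48 to 147 in replicate 1 and from 57 to 130 in replicate 2. The highest lay 57349 bp from the 5′ end, with 147 in replicate 1 and 130 in replicate 2, which was above the Map1b promoter in replicate 1 and below it in replicate 2. It is printed because, by the lower of both percentiles, it ranks first among the members' distal regions outside the stretch past Tubb3 described below (GRCm38, plus strand, capitals mark GGGCGG on the minus strand).
Map1b intron, chr13:99459096-99459285: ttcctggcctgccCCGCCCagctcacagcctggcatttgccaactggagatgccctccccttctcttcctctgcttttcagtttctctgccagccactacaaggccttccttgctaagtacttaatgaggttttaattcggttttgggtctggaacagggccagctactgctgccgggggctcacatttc
This match lies outside the central 150 bp in which motifs were counted. In that window GGGCGG occurred in 5.56% of the members' distal regions, this one not among them, and in 4.92% of all distal regions. The other of the 2 highest distal regions of Map1b lay past its 3′ end, inside the gene Mrps27, with scores of 137 and 133.

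Map2, the longest of the genes at 267311 bp, had 9 distal regions in its body, or 0.337 per 10 kb, and they were weaker. They scored from 28 to 82 in replicate 1 and from 23 to 70 in replicate 2, with medians of 67 and 38. By the lower of both percentiles the highest lay 36338 bp from the 5′ end, with 77 and 70, while a region at 221728 bp scored 82 in replicate 1 and 47 in replicate 2. Over the whole Map2 locus the libraries differed likewise, and its 22 shared regions had a median score of 64.5 in replicate 1 and 37.5 in replicate 2. For comparison, the 29 shared regions of Mapt had medians of 92 and 68.

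Gap43 had 6 distal regions in its body and 4 outside. The highest, with 120 in replicate 1 and 111 in replicate 2, lay in an intron 84760 bp from the 5′ end and exceeded the scores of both Gap43 start sites in each library. A region 40190 bp upstream scored 109 and 99, and no other protein-coding promoter lies within 50 kb of Gap43. Stmn2 had 2 distal regions in its body and 4 in its flanks. The highest of these, 85531 bp from the 5′ end and downstream, scored 93 in replicate 1 and 87 in replicate 2, both above the Stmn2 promoter.

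Stmn4 had only 2 distal regions in its body, with scores from 29 to 47, and 13 in its flanks, 10 of them upstream. The highest of these lay 19145 bp upstream, with 142 in replicate 1 and 121 in replicate 2, and another lay 37005 bp upstream, inside the neighbouring gene Trim35, with 130 and 115. Stmn3 lies among other genes with open promoters and had 1 distal region in its body, with scores of 53 and 39, and 1 outside, with 85 and 74. The promoters of its neighbours Gmeb2, Rtel1 and Arfrp1 scored from 135 to 148 in replicate 1 and from 130 to 146 in replicate 2, above the 127 and 108 of Stmn3. Of the 11 protein-coding neighbours with a promoter within 50 kb of a member, Capn6 alone had no open promoter.

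The densest row of distal regions lay just past the 3′ end of Tubb3. In chr8:123426436-123436365, which is 4421 to 14350 bp beyond the annotated end of Tubb3 and inside the gene Def8, 12 distal shared regions were called. They scored from 53 to 146 in replicate 1 and from 58 to 144 in replicate 2, with medians of 131.5 and 135.5. The 2 highest scored 146 and 144, and 141 and 141, levels close to that of the Tubb3 promoter. A window of this length that started at a distal region held as many in 79 of 76125 cases, or 0.104%. The length and the count were set by this stretch itself, and such windows can overlap. The share is therefore a description and no test of rarity. Of the 12 regions, 8 scored higher in replicate 2, against the general shift to lower scores there.

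The sequence of this stretch has the layout of an integrated retrovirus. On GRCm38, 11 of the 12 regions lie between 2 identical direct repeats of 523 bp at chr8:123425804-123426326 and chr8:123434009-123434531, which together span 8728 bp. An endogenous ecotropic provirus, Emv2, is known from this part of chromosome 8 of the reference strain C57BL/6J. The share of 32-base sequences that occur once ranged from 36.0% to 100% over the 12 regions, with a median of 91.5%, while 191 of the other 197 regions around the members stood at 100% and none under 50%. Between the repeats, 9 of 10 hotspots of replicate 1 had exactly the same first and last base in replicate 2. Elsewhere around the members this was so for 0 of 214 hotspots of replicate 1, and over the whole list for 0.934%. Whether the signal belongs to this copy or to other copies in the cells was not tested, and neither was any relation of these regions to Tubb3.

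**Figure D3:**
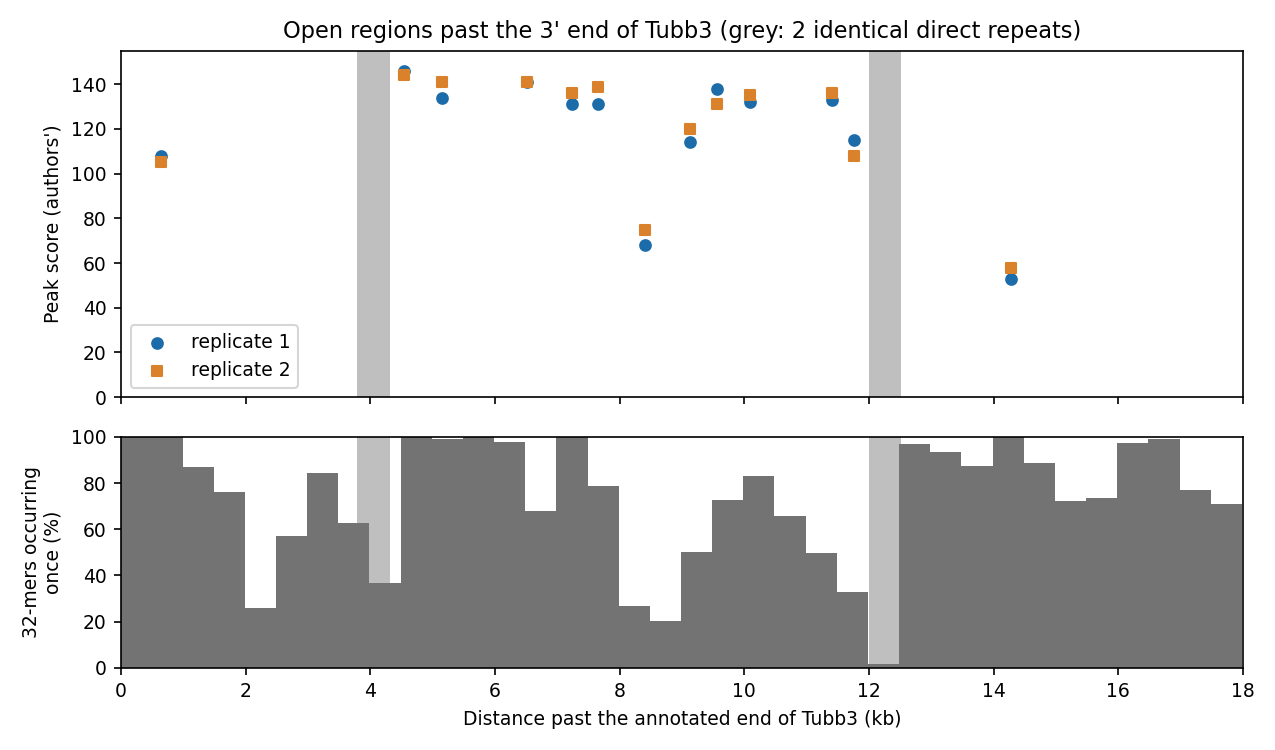
The upper panel plots the authors' score of each shared region past the annotated end of Tubb3 against its distance in kb, for replicate 1 (circles) and replicate 2 (squares). The lower panel gives, in windows of 500 bp, the percentage of 32-base sequences that occur once on the main chromosomes. Grey bands are the 2 identical direct repeats. The high-scoring regions stand between the bands, where parts of the sequence occur more than once.

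Without the regions between the repeats, Tubb3 kept 3 of its 14 distal regions in the flank, and the flanks of all members held 46 in place of 57. The median score of the remaining 97 distal regions was 73 in replicate 1 and 58 in replicate 2. The highest distal regions of Tubb3 were then one 49923 bp upstream, inside Spire2, with 101 in replicate 1 and 107 in replicate 2, and an intronic one 4727 bp from the 5′ end, with 93 and 98. The promoters of the Tubb3 neighbours Tcf25, Mc1r and Def8 scored 147, 119 and 143 in replicate 1 and 144, 96 and 137 in replicate 2. A readthrough gene, Gm20388, is annotated across the Tubb3 locus, so that regions inside Tubb3 also lie inside that gene.

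CpG content differed widely among the members. The ratio of observed to expected CpG over the 1 kb around the 5′ end was 0.903 at Marcks, 0.893 at Mapt, 0.697 at Map2, 0.672 at Map1b and 0.601 at Tubb3, and 0.254 to 0.358 at Gap43, Stmn2, Stmn3, Stmn4 and Dcx. Over all genes the median was 0.710 for open and 0.211 for other promoters. The 4 members with the highest lower percentile all belong to the 5 with the higher ratios. Mapt, the other of these, had a lower percentile of 36.3, below the 38.7 of Stmn4. The ratios of Map2, Map1b and Tubb3 lay below the median of open promoters. Any relation of CpG content to the scores was not tested. Gap43, Stmn2, Stmn3 and Stmn4 were open at ratios below the 0.553 median of all protein-coding genes.

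RE1 matches were sought because REST is the known repressor of several of these genes outside neurons. With at most 1 mismatch, an RE1 match lay in the central 150 bp of 3 of the members' regions: the promoter regions of Stmn3 and Map2 and 1 intronic region of Map1b. The sites are printed on the strand that matches, with coordinates on GRCm38.
Stmn3 exon, chr2:181314205-181314221, minus strand: GCCAGCACCATGGCCAG
Map2 upstream, chr1:66175088-66175104, minus strand: CTTGGAGCCCCAGAGAG
Map1b intron, chr13:99509061-99509077, plus strand: ATGAGAACCCTGGACAG
The regions that hold them scored 127 and 108 in Stmn3, 135 and 128 in Map2 and 83 and 84 in Map1b, in replicates 1 and 2. Of the members' 30 promoter regions 6.67% held a match, and of all 33475 promoter regions 0.615%. Of the members' 108 distal regions 0.926% held one, and of all distal regions 0.594%. With 2 and 1 regions these shares rest on few matches, and a match does not show that REST bound there. No RE1 match at this setting was found in the promoter regions of Stmn2. With up to 2 mismatches, 10% of the members' promoter regions held a match, against 6.29% of all promoter regions. In distal regions the shares were then 3.70% for the members and 5.87% for all.

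Among the other motifs sought in the central 150 bp, GGGCGG occurred in 30% of the members' promoter regions and in 33.1% of all promoter regions, and CCAAT in 30% and 19.5%. TAATTA occurred in 6.67% and 1.65%, from 1 region each of Map2 and Stmn2. In distal regions the E-box CAGATG occurred in 23.1% of those of the members and 20.8% of all, and TGANTCA, the AP-1 element, in 14.8% and 17.5%. One intronic region of Mapt, the highest distal region of that gene, held the E-box, the homeodomain core and the AP-1 element together. A weak intronic region of Map2, 165688 bp from the 5′ end with scores of 31 and 31, held the same elements. The share of all distal regions with this combination was not counted.

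The wider pathway was open at most of its genes. Of 120 other genes in 7 lists, 109 (90.8%) had an open promoter, with a median lower percentile of 48.8, beside 9 of 10 members and 59.5% of all genes. Of 14 other tubulins 11 were open, and Tuba1a, an alpha-tubulin abundant in developing neurons, scored 148 in replicate 1 and 145 in replicate 2. Tubb4b, Tuba1b and Tuba1c followed with 146 to 147 in replicate 1 and 138 to 147 in replicate 2. Tuba4a, Tubb1, which belongs to platelets and megakaryocytes, and Tubb4a had no promoter peak. Of 25 other microtubule-associated proteins 24 were open, led by Clip2, Mapre1, Tppp3 and Map1a with 146 to 149 in replicate 1 and 141 to 149 in replicate 2, and Map10 had no peak.

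The list of relatives of the stathmins, doublecortin and MARCKS, which need not be complete, had 8 genes. All 8 were open, in contrast to Dcx itself, but not all strongly. Their median lower percentile was 29.3, against 48.8 over the open genes of all pathway lists together. Stmn1, the ubiquitous stathmin, scored 146 in replicate 1 and 139 in replicate 2. Marcksl1 scored 140 and 132, and the doublecortin-like kinases Dclk1 and Dclk2 scored 142 and 126, and 131 and 123. The doublecortin relatives Dclk3 and Dcdc2a were far weaker, with 58 and 60, and 55 and 41. Their lower percentiles were 9.15 and 5.05. Of 20 growth cone proteins 16 were open, with Dbnl, Rufy3, Cotl1 and Dpysl2 (CRMP2, which binds tubulin dimers) at 144 to 148 in replicate 1 and 134 to 148 in replicate 2. Fez1 and Gprin3 had no peak, and the other 2 genes without an open promoter had a peak in 1 replicate only. All 18 enzymes that modify or sever microtubules were open, among them the katanin subunit Katna1 with 147 in replicate 1 and 140 in replicate 2. Of 17 axonal transport motors 16 were open, and Kif21a was the one without a peak. Of 18 kinases of these substrates 16 were open, among them Gsk3b with 148 and 141 and Cdk5 with 147 and 140, the main tau kinases, and Mark1 had no peak. The other kinase without an open promoter had a peak in replicate 1 only.

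**Figure D4:**
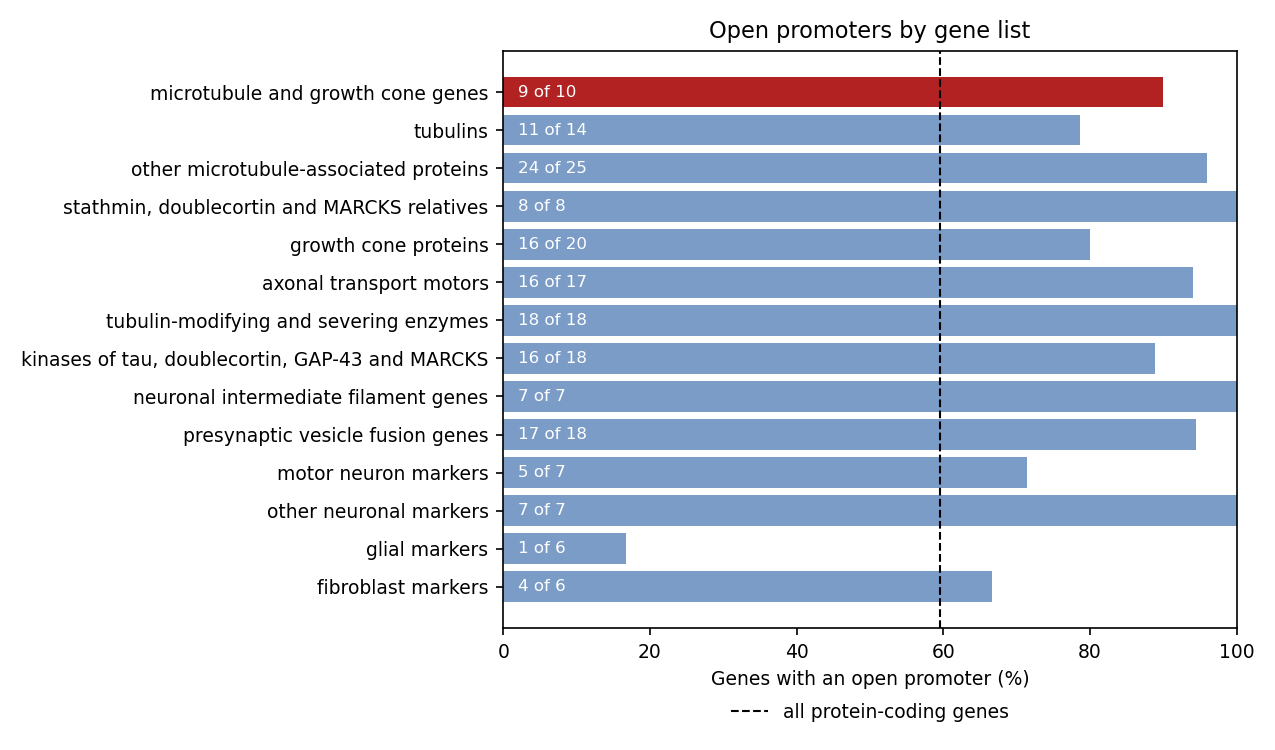
Bars give the percentage of genes with an open promoter in each list, with the counts printed in the bar, and the dashed line gives the 59.5% of all protein-coding genes. The 10 microtubule and growth cone genes are at the top with 9 of 10, and the glial markers are lowest with 1 of 6.

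Set beside the most similar groups, the median lower percentile of the 9 open members was 38.7, that of 17 open presynaptic fusion genes of 18 was 38.7, and that of all 7 neuronal intermediate filament genes was 30.4. These lists were not tested against each other.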

How the data were processed

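Chromatin accessibility was measured by DNase-seq in 2 biological replicates of MN1. Per the listing deposited with the files, the authors made peaks and hotspots separately for each replicate, from its own alignments on mm10 and 1 more file. Aligner, caller and read numbers: not given in the sources used here. Depth is therefore unknown. The score is deposited by the authors per peak and was used only to rank and describe peaks within a list. For hotspots the authors deposited the −log10 of a q-value, up to 100.

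From these lists, peaks on 21 main chromosomes were kept, peaks of both replicates overlapping by at least 1 bp were merged, and GENCODE M21 gene models were laid over them (mm10, GRCm38, 1-based coordinates). Sequence within 1 kb of start sites, in shared regions and past Tubb3 was split into 32-base words that were counted on both strands of the main chromosomes. Motifs were sought on both strands, the RE1, NRF1, NFI and RFX motifs with 1 mismatch and the others with none. CRE, NRF1, EBF, NFI and RFX matches are not described further. TATAAA was added after the data were seen. Python 3.11.15, numpy 2.4.6, pandas 2.3.3 and pysam 0.24.0 were used, and steps were tested on simulated data.

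With 1 group there was no test between conditions, and lists are described by counts and medians beside all genes. The members, the lists and the motifs were chosen with earlier results of these data known. Genes named were all members, in each list up to 4 open genes with the highest lower percentile and, by alphabet, the first 3 that lacked a peak (only some are printed, and 1 that the rule takes is not reported here), the 2 highest distal regions of each member and neighbours with promoters within 50 kb. Other regions, and the genes Dclk3 and Dcdc2a, were chosen after their values were seen.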

Additional observations from a re-analysis of the deposited data

How the results depend on the processing

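The number of members with an open promoter was 9 with the stronger 50% of peaks, with a mutual overlap of at least 50%, with promoter windows of 500 bp or 2.5 kb, with start sites of protein-coding transcripts alone, with hotspots in place of peaks, and without either replicate. The share of all protein-coding genes then ranged from 55.5% with the stronger peaks to 63.4% with the 2.5 kb window. The median lower percentile of 38.7 moved to 33.2 with the stronger peaks and to 46.8 with the 2.5 kb window, and it ranged from 48.0 to 48.8 without one replicate, where it is the percentile of the other replicate alone. The 51 distal regions in the bodies became 27 with the stronger peaks and ranged from 59 to 70 without one replicate. The 57 distal regions in the flanks became 36 with the stronger peaks, 36 with flanks of 25 kb, 119 with flanks of 100 kb and 46 without the regions between the repeats past Tubb3, an alternative chosen after seeing the data, and ranged from 77 to 87 without one replicate. The 109 open genes of the pathway lists ranged from 105 to 111 over the alternatives, beside the 55.5% to 63.4% of all genes. The 3 RE1 matches became 0 with no mismatch and 7 with 2 mismatches. The lower percentile of single members moved by more than the SD between replicates in 15 cases, among them Stmn2 at 3.68 with the stronger peaks in place of 11.0, and by less in 48. For single genes, counts of distal regions moved by over 1.5 times in 16 of 70 cases in the bodies and 24 of 90 in the flanks. Of the 6 glial markers, 4 were open with the 2.5 kb window. No paired analysis was possible because there is 1 group. The unknown depth and the threshold of the caller limit all values, which are called peaks and not signal.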
